A study of Mus musculus with 8 samples.

Results

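AP-1 and immediate early transcription factors were followed in brain pericytes exposed to TGF-β1. The group held 10 genes: the FOS family (*Fos*, *Fosb*, *Fosl1* and *Fosl2*), the JUN family (*Jun*, *Junb* and *Jund*), *Atf3*, *Egr1* and *Egr2*. They were taken by symbol from the 54532 gene identifiers of the count tables. The rule itself used no measured value, but the members were chosen with earlier results of these data known. Each symbol matched 1 identifier, and all 10 genes passed the filter on low counts, with between 171 counts (*Fosb*) and 14312 counts (*Fosl2*) in a culture. The cells were wild-type (WT) mouse brain pericytes in primary culture, with 4 cultures given TGF-β1 (5 μg/mL) and 4 given vehicle, and RNA was taken at 48 h. By the study's methods, they were expanded in an endothelial growth medium and kept from the third passage in pericyte medium. The methods describe isolates that received both treatments, whereas the labels number the vehicle cultures 1 to 4 and the TGF-β1 cultures 5 to 8. The groups were therefore compared as unpaired, and p-values weigh a difference against the spread between these cultures. The methods state a sex and ages for the study's mice without saying whether the brains came from them, and do not say whether brains were pooled.

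Pericytes wrap capillaries and help to set vessel tone and permeability. AP-1 is a dimer of basic leucine zipper (bZIP) proteins: JUN proteins pair with themselves or with FOS proteins, FOS proteins need a JUN partner, and the dimer binds a short palindrome in promoters and enhancers. Immediate early genes such as *Fos* and *Egr1* are switched on within minutes of a growth factor or stress signal, through MAP kinases and the serum response factor, without new protein synthesis, and their transcripts usually decline within hours. In fibroblasts and mural cells, AP-1 factors act with SMAD proteins at many genes of the TGF-β response. A sample at 48 h therefore describes standing levels and not the first wave.

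At 48 h, 7 of the 10 genes were higher in the TGF-β1 cultures (*Fos*, *Fosb*, *Fosl1*, *Fosl2*, *Junb*, *Egr1* and *Egr2*), 1 was lower (*Jund*), and *Jun* and *Atf3* did not pass the test (edgeR quasi-likelihood test, Benjamini-Hochberg adjusted p under 0.05). The largest rise was that of *Egr2*, at 2.80-fold. The other 6 rises lay between 1.35-fold (*Fosb*) and 1.61-fold (*Egr1*). The response to TGF-β1 was broad, and the count has to be read beside it: of the 22544 genes tested, 41.3% were called in either direction, 20.9% as higher and 20.3% as lower. In 8 of the 10 genes, every TGF-β1 culture lay on the same side of every vehicle culture, which held for 37.9% of all genes tested. The median log2 fold change was 0.46 over the 10 genes and −0.01 over all genes tested.

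**Figure D1:**
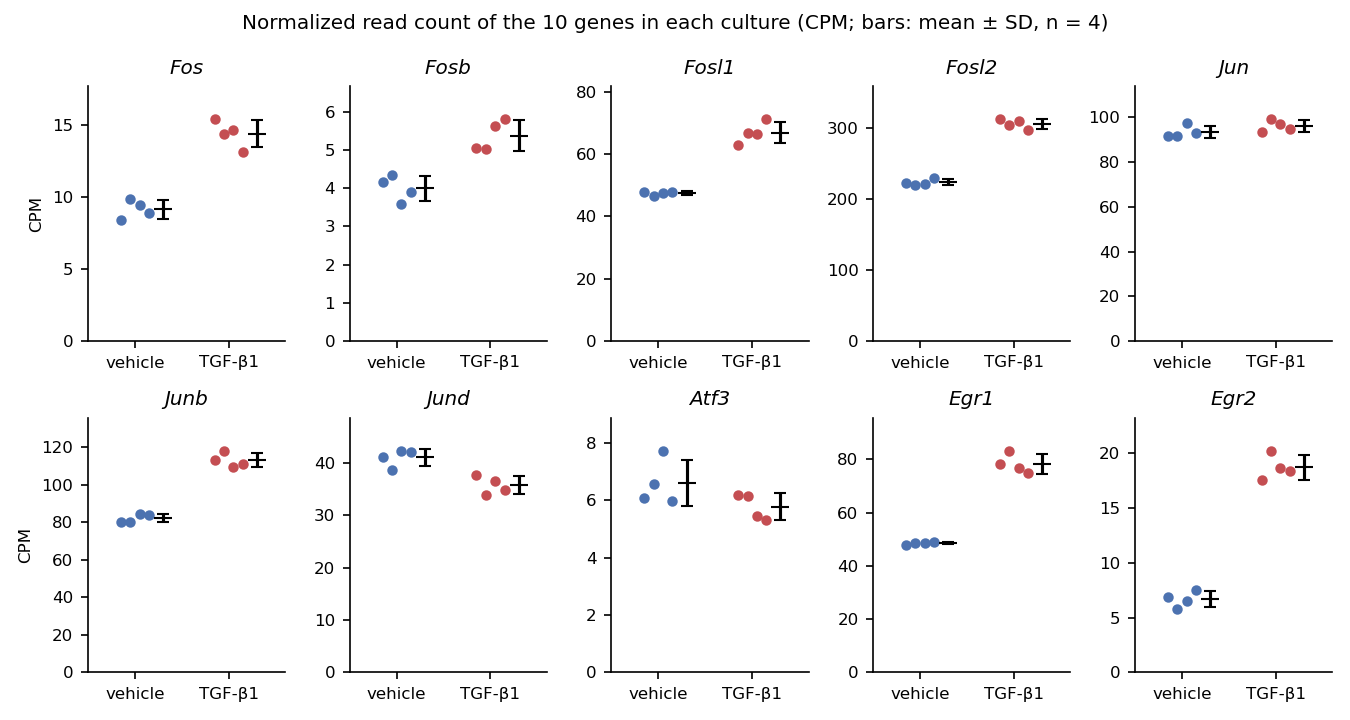
Normalized read count (CPM, read counts relative to the TMM-scaled library total, each axis from 0) of the 10 genes in every culture, with 4 vehicle cultures in blue, 4 TGF-β1 cultures in red, and the mean ± SD of each group in black. The groups are apart in 8 panels, by the widest ratio for *Egr2*, and overlap in the panels of *Jun* and *Atf3*.

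The cultures were deeply sequenced and evenly so, with 45255235 to 47651397 counts each. The labelled cell type was checked against 12 pericyte markers. *Pdgfrb*, the platelet-derived growth factor receptor that pericytes depend on, was at 202 ± 5.43 CPM with vehicle and 291 ± 2.58 CPM with TGF-β1 (SD, n = 4 each), *Cspg4* at 82.9 ± 2.50 and 169 ± 5.62 CPM, and *Rgs5* at 8.62 ± 0.466 and 2.13 ± 0.245 CPM. Of the 9 markers tested, 3 were called higher (*Pdgfrb*, *Cspg4* and *Mcam*) and 3 lower (*Rgs5*, *Anpep* and *Atp13a5*). This was 33.3% each, against 20.9% and 20.3% of all genes tested. *Anpep* went from 40.5 to 30.1 CPM and *Mcam* from 5.25 to 10.1 CPM, while *Notch3*, at 88.5 and 85.9 CPM, did not pass the test. However, 6 of the 12 were under 1 CPM in all cultures, among them *Kcnj8*, *Abcc9*, *Vtn* and *Des*. Of the marker lists for other cells, the 6 fibroblast genes summed to 2421 to 2545 CPM with vehicle and 3799 to 3961 CPM with TGF-β1, nearly all from the collagens *Col1a1* and *Col3a1*. The other fibroblast genes did not rise with them. *Dcn* went from 52.1 ± 2.22 to 46.7 ± 1.62 CPM (log2 fold change −0.16, edgeR adjusted p = 0.000372), and *Pdgfra* was at 62.5 and 63.0 CPM. *Lum* and *Dpt* were under 1 CPM in all cultures, and *Dpt* was called lower (log2 fold change −0.82, edgeR adjusted p = 0.0490). The 8 endothelial genes summed to 471 to 484 CPM and 472 to 498 CPM, of which *Cdh5* made up most. *Flt1* was at 81.7 ± 1.32 and 99.2 ± 1.11 CPM (log2 fold change 0.28, adjusted p = 1.16e-11) and *Kdr* at 17.9 and 18.6 CPM, while *Tie1*, *Cldn5* and *Erg* were under 1 CPM. *Tek* went the other way from *Flt1*, from 2.71 ± 0.575 to 1.99 ± 0.164 CPM (log2 fold change −0.45, edgeR adjusted p = 0.0126). *Pecam1* was at a mean of 1.11 CPM in both groups. The 5 astrocyte genes summed to 45.9 to 52.0 CPM and 26.9 to 29.2 CPM, mostly from *Slc1a2*, and *Aqp4* was under 1 CPM throughout. Within that list *Aldh1l1* went the other way, from 5.16 ± 0.422 to 8.79 ± 0.305 CPM (log2 fold change 0.77, adjusted p = 1.75e-10), and *Gfap* was at 0.879 and 0.947 CPM. The macrophage and microglia (8 genes), oligodendrocyte lineage (6 genes) and neuron (4 genes) sums lay between 2.59 and 12.0 CPM. The part of these shifts in the results below was not tested, and in bulk RNA fewer cells of a type cannot be told apart from less RNA per cell.

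In the FOS family, all 4 members rose. *Fos* (chromosome 12, 85473890 to 85477273, + strand, GRCm38), the prototype of the family and of immediate early genes, had 8.40, 9.87, 9.43 and 8.93 CPM in vehicle cultures 1 to 4 and 15.4, 14.4, 14.7 and 13.2 CPM in TGF-β1 cultures 5 to 8. The lowest TGF-β1 culture thus lay above the highest vehicle culture. The log2 fold change was 0.66 (SE 0.07, 95% confidence interval 0.52 to 0.79, adjusted p = 5.11e-11), on 387 to 707 counts a culture.

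*Fosb* (chromosome 7, 19302696 to 19310051, − strand), which encodes both a full-length activator and a shorter splice form, had the lowest level of the 10 genes per exon length. It had 4.17, 4.34, 3.60 and 3.90 CPM with vehicle and 5.06, 5.03, 5.63 and 5.81 CPM with TGF-β1. The groups did not overlap, but only 0.688 CPM lay between them, and the log2 fold change of 0.43 (SE 0.10, adjusted p = 0.000488) had the widest error of the family, with a 95% confidence interval of 0.22 to 0.63. Gene-level counts do not separate the splice forms.

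*Fosl1* and *Fosl2* encode FRA1 and FRA2, FOS proteins without the strong activation domain of FOS, and they carried most of the family's RNA. *Fosl1* (chromosome 19, 5447547 to 5455946, + strand) had 47.8, 46.4, 47.4 and 47.8 CPM with vehicle and 63.0, 66.7, 66.6 and 71.2 CPM with TGF-β1. *Fosl2* (chromosome 5, 32135801 to 32157842, + strand) had 223, 219.7, 221 and 229 CPM with vehicle and 312, 304, 309 and 297 CPM with TGF-β1. Vehicle cultures were nearly level for both genes, and every TGF-β1 culture lay above them. The log2 fold changes were 0.50 for *Fosl1* (SE 0.03, adjusted p = 3.13e-16) and 0.45 for *Fosl2* (SE 0.02, adjusted p = 2.44e-20). The ratio of *Fosl1* to *Fosl2* within a culture moved by 0.04 on the log2 scale (SE 0.05), and its ranges overlapped between the groups.

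The level of *Fosl1* carries a caveat of annotation. *Ccdc85b*, on the opposite strand, overlaps 57.2% of the exon bases of *Fosl1*, and the strand setting of the counting is not given in the sources used here. *Ccdc85b* itself fell from 38.6 ± 2.56 to 26.7 ± 1.73 CPM (log2 fold change −0.54, SE 0.05, adjusted p = 2.18e-12), so it moved opposite to *Fosl1*. The members *Fos*, *Fosb*, *Fosl2*, *Atf3*, *Egr1* and *Egr2* shared no 50-base word of their exons with another gene.

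Sequences before RefSeq transcript starts of FOS genes are shown because the family rose together. RefSeq promoter windows (GRCm38.p6, 250 bases before to 50 after a transcript start) were at hand for 8 of the 10 genes, in 12 windows, with no entry for *Fosl1* and *Egr1*. In the lines below, capitals mark TGACG (the first 5 letters of the cyclic AMP response element TGACGTCA) and TATAAA in *Fos* (chr12:85473640-85473889, + strand), and the EGR motif GCGNGGGCG in *Fosb* (chr7:19310052-19310295, − strand) and *Fosl2* (chr5:32136383-32136411, + strand, the site and 10 bases on either side). The *Fosl2* stretch precedes an internal RefSeq start and lies within the annotated span of the gene. TGACG and TATAAA were chosen after the sequences were seen.
Fos: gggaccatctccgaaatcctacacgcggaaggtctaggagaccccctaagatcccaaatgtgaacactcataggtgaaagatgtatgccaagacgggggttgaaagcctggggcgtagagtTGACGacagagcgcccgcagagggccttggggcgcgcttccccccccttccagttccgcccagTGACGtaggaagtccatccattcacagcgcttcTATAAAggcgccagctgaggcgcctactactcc
Fosb: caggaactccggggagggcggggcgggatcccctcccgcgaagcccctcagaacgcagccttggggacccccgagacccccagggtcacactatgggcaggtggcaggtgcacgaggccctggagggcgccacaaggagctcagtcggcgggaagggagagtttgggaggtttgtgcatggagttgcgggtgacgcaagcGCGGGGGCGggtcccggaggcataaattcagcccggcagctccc
Fosl2: ccggctgcgcGCGGGGGCGgaagggcgcg
TGACG starts 129 and 66 bases before the *Fos* start and TATAAA 33 bases before it. The EGR motif starts 50 bases before the start of *Fosb* and 79 bases before that of *Fosl2*, and was in 2 of the 12 windows of these genes and in 5.55% of all 32851 windows, both strands read.

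None of the 12 windows held the AP-1 heptamer TGANTCA, the full TGACGTCA or the SMAD palindrome GTCTAGAC, which were in 7.81%, 1.79% and 0.213% of all windows. TGACG was in 7 of the 12 and in 20.8% of all windows, but 3 of the 7 are overlapping windows of *Egr2* that hold the same matches, so that they stand for 5 genes. TATAAA was in 2 of the 12 and in 13.6% of all windows. A match describes the letters of a window, and a missing match says only that these letters are not in it.

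The JUN family did not move together. *Junb* rose, *Jund* fell, and the change of *Jun* did not pass the test. *Junb* (chromosome 8, 84974484 to 84978718, − strand), a partner for FOS proteins that is a weaker activator than JUN, had 80.1, 80.2, 84.5 and 83.5 CPM with vehicle and 113, 118, 109 and 111 CPM with TGF-β1. All TGF-β1 cultures were above all vehicle cultures, and the log2 fold change was 0.46 (SE 0.03, 95% confidence interval 0.40 to 0.52, adjusted p = 1.21e-17).

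*Jun* (chromosome 4, 95049034 to 95052222, − strand), which encodes c-Jun, the main target of the JNK kinases, had 91.6, 91.8, 97.5 and 93.3 CPM with vehicle and 93.7, 99.2, 97.2 and 94.6 CPM with TGF-β1. The groups overlapped. *Junos* overlaps 7.28% of the exon bases of *Jun*, and *Prdx2* 7.52% of those of *Junb*. The log2 fold change of *Jun* was 0.04 (SE 0.03, adjusted p = 0.292), with a 95% confidence interval of −0.02 to 0.10, whose upper end lies below the lower end for each of the 7 genes that rose.

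*Jund* (chromosome 8, 70698949 to 70700616, + strand), the JUN gene that resting cells express most steadily, had 41.1, 38.6, 42.3 and 42.0 CPM with vehicle and 37.7, 33.9, 36.4 and 34.8 CPM with TGF-β1. The groups did not overlap, though vehicle culture 2 lay only 0.983 CPM above TGF-β1 culture 5. The log2 fold change was −0.20 (SE 0.04, 95% confidence interval −0.28 to −0.12, adjusted p = 6.49e-05). This fall is of ordinary size in these data, as 47.2% of all genes tested had a larger absolute change. The annotation places *Gm11175* over 52.6% of the exon bases of *Jund*, and that gene had 0 counts in all cultures.

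**Figure D2:**
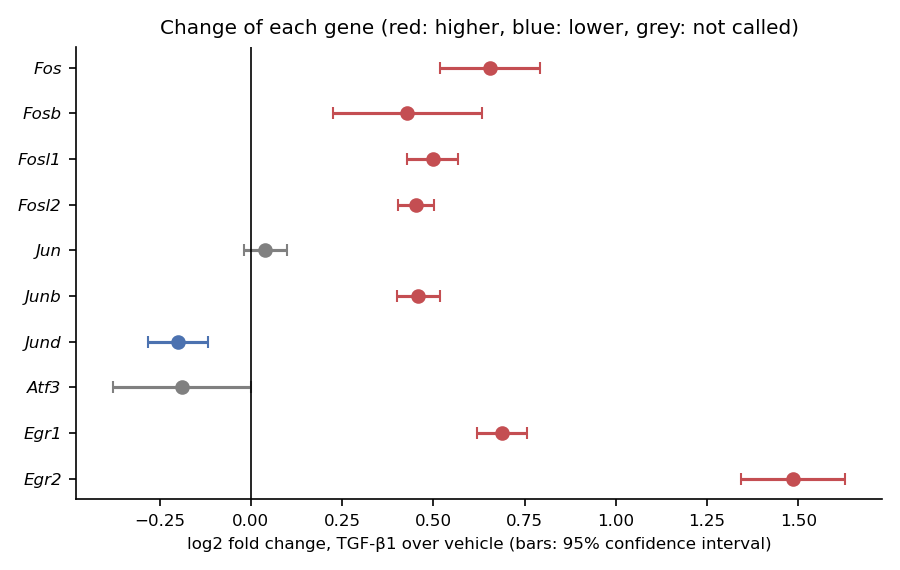
Log2 fold change of TGF-β1 over vehicle for the 10 genes (points), with 95% confidence intervals (bars) from the edgeR fit on 4 against 4 cultures. *Egr2* stands at 1.49, 6 genes lie between 0.43 and 0.69, the interval of *Jun* includes 0, and *Jund* lies at −0.20.

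Since JUN proteins are the obligate partners of FOS proteins, the balance within the family was also described. The ratio of *Junb* to *Jun* within a culture ran from −0.21 to −0.16 on the log2 scale with vehicle and from 0.17 to 0.27 with TGF-β1, a difference of 0.42 (SE 0.02). The ranges did not overlap, so that *Junb* gained on *Jun* in every TGF-β1 culture. For *Junb* to *Jund*, the ratio ran from 0.96 to 1.05 and from 1.58 to 1.80, a difference of 0.66 (SE 0.05). These ratios, and those of *Fosl1* to *Fosl2* and of *Egr2* to other EGR genes, were chosen after their values were seen and are given without a test.

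Levels of different genes were compared as TPM, in which counts are divided by exon length before they are scaled to a common total. With vehicle, *Junb* was the highest at 152 ± 2.78 TPM (SD, n = 4), followed by *Jun* at 125 ± 2.86 TPM. *Jund* (105 ± 3.68 TPM), *Fosl1* (99.6 ± 1.50 TPM) and *Fosl2* (98.6 ± 1.69 TPM) came next, and neighbours in that order overlapped between cultures. *Egr1* followed at 46.3 ± 0.355 TPM, then *Fos* at 16.6 ± 1.13, *Atf3* at 13.1 ± 1.53, *Egr2* at 8.39 ± 0.910 and *Fosb* at 2.74 ± 0.245 TPM, with no overlap between neighbours.

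With TGF-β1, *Junb* was again the highest at 209 ± 5.03 TPM. *Fosl1* (139.9 ± 8.05 TPM) and *Fosl2* (134 ± 2.81 TPM), which overlapped each other, now stood above *Jun* (128 ± 2.82 TPM) and *Jund* (91.0 ± 4.55 TPM). *Egr1* was at 74.2 ± 2.64 TPM. *Egr2*, at 23.4 ± 1.25 TPM, overlapped with *Fos* at 26.1 ± 1.58 TPM and stood above *Atf3* at 11.4 ± 0.820 TPM, the reverse of their order with vehicle. *Fosb* remained lowest at 3.67 ± 0.306 TPM. The order holds for whole exon length only, since *Fosl1* and *Jund* share much of theirs with other genes. With the whole count divided by unshared exon bases, *Fosl1* stood above *Junb* in both groups. *Jund* then stood above *Junb* in the vehicle cultures.

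**Figure D3:**
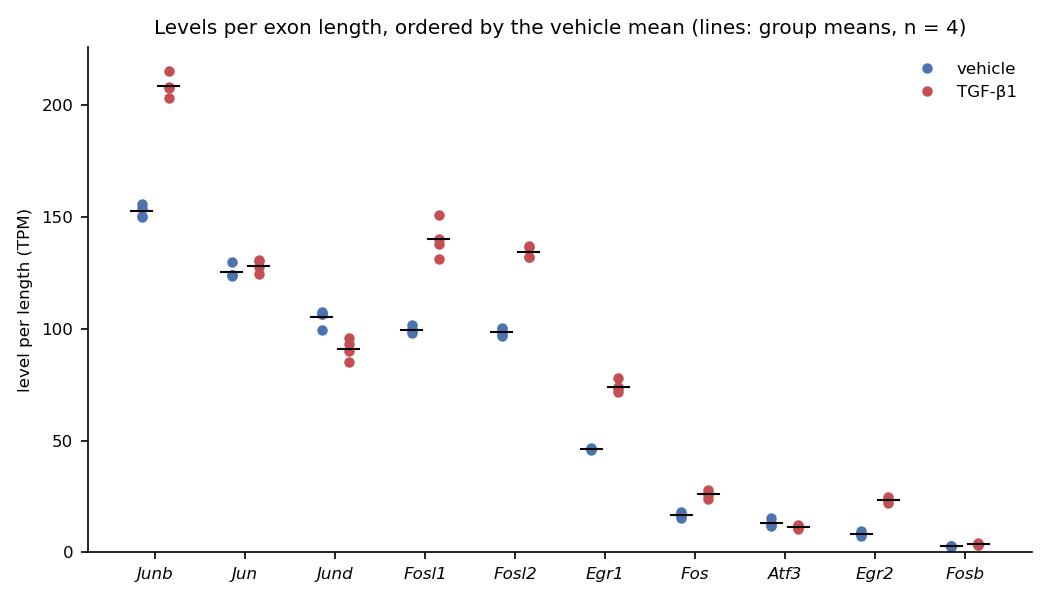
Level per exon length (TPM, axis from 0) of the 10 genes in each culture, ordered by the vehicle mean, with 4 vehicle cultures in blue, 4 TGF-β1 cultures in red and lines at the group means. On whole exon length *Junb* is highest in both groups, at 152 and 209 TPM. The points of *Fosl1* and *Fosl2* lie above those of *Jun* and *Jund* in the TGF-β1 cultures. With the whole count divided by unshared exon bases (not plotted), *Fosl1* is above *Junb* in both groups and *Jund* is above *Junb* with vehicle.

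Summed over each family, FOS transcripts went from 218 ± 2.03 to 304 ± 5.87 TPM and JUN transcripts from 383 ± 8.15 to 428 ± 2.63 TPM, without overlap between the groups. *Fosl1* held 45.8% ± 0.427 of the FOS sum with vehicle and 46.0% ± 1.92 with TGF-β1, and *Fosl2* held 45.3% ± 0.411 and 44.2% ± 1.34. *Fos* itself held 7.65% and 8.59%, and *Fosb* 1.26% and 1.21%. In the JUN sum, the share of *Junb* went from 39.8% ± 0.307 to 48.7% ± 0.954, while that of *Jun* went from 32.7% to 30.0% and that of *Jund* from 27.4% to 21.3%. These shares depend on the length model. The whole count was also divided only by exon bases that no other gene covers, an alternative chosen after seeing the data. Reads in shared bases were not removed, and whether they were counted is not known. On that scale *Jund* led the JUN family with vehicle, at 42.5%, and held 34.5% with TGF-β1. *Fosl1* held 66.3% and 66.5% of the FOS family. *Junb* still gained share, from 31.6% to 40.6%, and led the JUN family with TGF-β1.

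*Atf3* (chromosome 1, 191170296 to 191218039, − strand), a stress-induced bZIP factor that pairs with JUN proteins and often represses, did not pass the test. It had 6.08, 6.56, 7.72 and 5.98 CPM with vehicle and 6.20, 6.16, 5.46 and 5.30 CPM with TGF-β1. The groups overlapped, and vehicle culture 3 stood above the rest. The log2 fold change was −0.19 (SE 0.09, adjusted p = 0.106), with a 95% confidence interval of −0.38 to −0.00026 before adjustment.

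*Egr2* (chromosome 10, 67535475 to 67542188, + strand), a zinc finger factor of the EGR family known for its roles in hindbrain patterning and Schwann cell myelination and as a responder to TGF-β in fibroblasts, rose the most of the 10 genes. It had 6.92, 5.75, 6.50 and 7.52 CPM with vehicle and 17.6, 20.2, 18.6 and 18.4 CPM with TGF-β1. The lowest TGF-β1 culture was 10.05 CPM above the highest vehicle culture. The log2 fold change was 1.49 (SE 0.07, 95% confidence interval 1.34 to 1.63, adjusted p = 7.51e-22), and only 2.07% of all genes tested had a larger absolute change.

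A window of *Egr2* is shown since this gene changed most. It precedes an internal RefSeq transcript start and lies within the annotated span of the gene, not upstream of it. In the line below (RefSeq, GRCm38.p6, chr10:67537619-67537868, + strand), capitals mark a CArG box, the site that the serum response factor binds, which starts 72 bases before that transcript start.
Egr2: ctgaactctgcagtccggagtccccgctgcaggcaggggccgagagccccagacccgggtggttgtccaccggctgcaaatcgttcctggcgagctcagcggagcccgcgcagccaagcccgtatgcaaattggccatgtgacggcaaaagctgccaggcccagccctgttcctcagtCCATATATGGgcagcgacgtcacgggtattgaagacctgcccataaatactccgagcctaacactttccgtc
A CArG box was in 4 of the 12 windows, all of them windows of *Egr2* that hold 2 separate boxes between them, and in 1.63% of all 32851 windows. *Srf*, which encodes the serum response factor and was named here after its value was seen, fell from 89.0 ± 3.78 to 62.3 ± 2.98 CPM (log2 fold change −0.52, SE 0.03, adjusted p = 1.23e-16).

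*Egr1* (chromosome 18, 34859823 to 34864984, + strand), the most widely induced EGR gene and a factor in fibroblast collagen expression, rose 1.61-fold. It had 47.9, 48.7, 48.5 and 49.0 CPM with vehicle and 78.1, 83.2, 76.7 and 74.8 CPM with TGF-β1. Vehicle cultures differed by little over 1 CPM, and every TGF-β1 culture lay far above them. The log2 fold change was 0.69 (SE 0.03, 95% confidence interval 0.62 to 0.76, adjusted p = 1.19e-21). The ratio of *Egr2* to *Egr1* within a culture was higher by 0.80 (SE 0.09) on the log2 scale with TGF-β1 and did not overlap between the groups.

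The 5 genes outside the 10 whose pattern over the 8 cultures was nearest to that of *Egr2* were *Dio2*, *Klhl30*, *Slc20a1*, *Arhgef19* and *Gm6093*. Likeness was the root mean square difference of log2 CPM centred on each gene's mean, which ran from 0.0851 (*Dio2*) to 0.100 (*Gm6093*). *Dio2*, the deiodinase that activates thyroid hormone, went from 17.4 to 47.2 mean CPM, and *Slc20a1*, a phosphate transporter, from 41.7 to 113 mean CPM. The log2 fold changes of the 5 lay between 1.38 and 1.52. The likeness is a description over 8 cultures and largely restates the size of the change.

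Other genes of the same response were read from lists of related genes. The lists were chosen with earlier results of these data known, so their counts describe the data and are no independent test. Of 16 genes commonly cited as AP-1 targets, 15 rose and none fell (edgeR quasi-likelihood test), against 20.9% and 20.3% of all genes tested, and the median log2 fold change was 1.02. *Mmp10*, a matrix metalloproteinase, went from 7.87 ± 0.538 to 36.8 ± 2.82 CPM (log2 fold change 2.23, adjusted p = 1.36e-30), and *Hbegf*, a ligand of the EGF receptor, from 7.05 ± 0.445 to 24.1 ± 2.33 CPM (1.77, adjusted p = 3.99e-25). The gene that did not pass was *Plau*, which encodes urokinase, at 8.94 ± 0.889 and 9.22 ± 0.570 CPM (log2 fold change 0.04, adjusted p = 0.702).

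Among 20 other immediate early genes, of which 19 were tested, 11 rose (57.9%) and 6 fell (31.6%, *Srf* among them), against 20.9% and 20.3% of all genes tested, with a median log2 fold change of 0.11, and *Egr4* had too few counts. *Egr3*, a further EGR gene, went from 7.10 ± 0.169 to 13.3 ± 1.06 CPM (log2 fold change 0.91, SE 0.07, adjusted p = 1.53e-14). The ratio of *Egr2* to *Egr3* within a culture was higher by 0.59 (SE 0.10) on the log2 scale with TGF-β1. *Nr4a1*, an orphan nuclear receptor, went from 7.24 ± 0.556 to 13.4 ± 1.32 CPM (0.89, adjusted p = 1.38e-13). *Ier3*, a survival-associated early response gene, went from 56.7 ± 2.09 to 95.8 ± 2.88 CPM (0.76, adjusted p = 6.50e-24). Both EGR corepressors rose by little, *Nab1* by 0.25 (SE 0.03, adjusted p = 2.24e-09) and *Nab2* by 0.16 (SE 0.03, adjusted p = 4.55e-05) on the log2 scale.

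Of 22 other bZIP genes and dimer partners, 21 were tested, 4 rose (*Atf1*, *Atf6*, *Mafk* and *Maff*) and 9 fell, with a median log2 fold change of 0.00, and *Nrl* had too few counts. The shares were 19.05% and 42.9%, against 20.9% and 20.3% of all genes tested, so that the share that rose was that of the background. *Maff*, a small MAF protein without an activation domain, went from 24.6 ± 1.41 to 49.7 ± 1.46 CPM (log2 fold change 1.02, adjusted p = 3.15e-24). *Maf*, a large MAF protein with an activation domain, fell from 142 ± 2.74 to 88.9 ± 5.85 CPM (−0.68, adjusted p = 1.62e-18).

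Among 23 genes for MAP kinases, their activators and the factors that act with the serum response factor, 10 rose and 5 fell (*Mapk3*, *Mapk10*, *Mapk14*, *Map2k6* and *Mrtfa*), with a median log2 fold change of 0.04. The shares were 43.5% and 21.7%, against 20.9% and 20.3% of all genes tested, so that the share that fell was near that of the background. *Mapk3*, which encodes the kinase ERK1 upstream of *Fos* and *Egr1* and was named after its value was seen, fell from 253 ± 2.53 to 182 ± 6.15 CPM (log2 fold change −0.48, SE 0.02, adjusted p = 1.70e-20). *Elk3*, a ternary complex factor that represses until it is phosphorylated, went from 88.8 ± 1.40 to 153 ± 5.33 CPM (log2 fold change 0.78, SE 0.03, adjusted p = 2.01e-26). *Map2k6*, an activator of p38, fell from 10.8 ± 1.39 to 5.96 ± 0.456 CPM (−0.85, adjusted p = 1.51e-11), and *Mapk10*, which encodes JNK3, from 3.50 ± 0.446 to 2.11 ± 0.432 CPM (−0.73, adjusted p = 3.50e-05). Transcript levels of kinases say nothing of their activity.

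**Figure D4:**
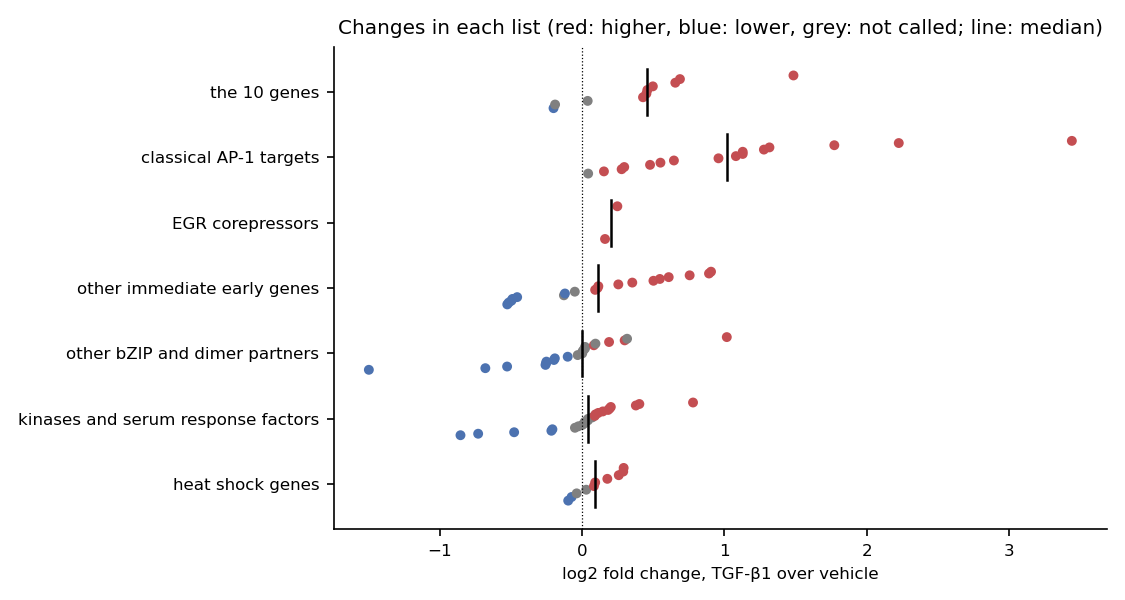
Log2 fold change of TGF-β1 over vehicle for each tested gene (points) of the 10 genes and of 6 related lists, with genes called higher in red, called lower in blue, not called in grey, and a line at each list's median. The AP-1 target list lies furthest to the right, with 15 of 16 genes called higher and a median of 1.02. All lists were chosen with earlier results of these data known. Medians lay near 0 for the heat shock (0.09), other immediate early (0.11), kinase (0.04) and other bZIP (0.00) lists. Of the 10 heat shock genes, 6 were called higher.

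Immediate early genes also respond to warming and handling of cells, so 10 heat shock genes were read beside them. Of these, 6 rose and 2 fell (*Bag3* and *Hspa1b*), with a median log2 fold change of 0.09, and their sum was 2053 to 2196 CPM with vehicle and 2229 to 2342 CPM with TGF-β1. The 60% that rose stands beside 20.9% of all genes tested and the 20% that fell beside 20.3%. The largest changes were 0.29 for *Hspd1* (adjusted p = 2.12e-05), 0.29 for *Hspa1a* (adjusted p = 0.00122) and 0.26 for *Hspe1* (adjusted p = 7.01e-09). *Hspd1* and *Hspe1* encode mitochondrial chaperonins. The sequence that *Hspa1a* shares with its neighbour *Hspa1b* was not measured here, so that its count is uncertain. *Hspa8*, named after its value was seen, went from 781 ± 32.2 to 884 ± 22.3 CPM without overlap (log2 fold change 0.18, edgeR adjusted p = 1.04e-07). The part of the heat shock genes, or of handling, in the changes of the 10 genes was not tested.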

How the data were processed

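Bulk RNA was sequenced from 8 mouse brain pericyte cultures after stranded total RNA library preparation. The authors deposited raw counts per gene, 1 table per culture. By the study's methods and the submitters' processing notes, reads were aligned to mm10 with STAR 2.7.5c in 2-pass mode, duplicates were removed with SAMtools 1.15 and reads were counted with featureCounts 2.0.3. The strand setting, annotation release and counting of pairs are not given in the sources used here. Of counts from 1 to 20, 68.5 to 70.2% were even.

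Here, counts were tested with edgeR 4.0.16 in R 4.3.3 (filterByExpr, TMM, robust quasi-likelihood fit on treatment alone, Benjamini-Hochberg adjustment over 22544 genes, threshold 0.05). The standard error was the log2 fold change divided by the square root of F. Symbols and exon lengths came from GENCODE M21 on GRCm38 (54495 of 54532 identifiers), and TPM used union exon length. Depth was 45255235 to 47651397 counts, so that 3 counts equal 0.0631 to 0.0658 CPM. Confidence intervals are for the log2 fold change between the groups, with a width set by the modelled spread between cultures. Replicate pairs differed by more than sampling noise (chi-square per degree of freedom 2.25 to 3.92, or 1.12 to 1.98 on halved counts), and each culture counted as 1 replicate. The code was tested on simulated data.

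Named genes were the 10 members, the 3 largest called changes of at least 1 mean CPM in each related list, and the 5 genes nearest to the member with the largest change. Others are said to have been chosen after their values were seen, apart from marker genes, genes that overlap a member and genes named to spell out a count of 5 or fewer. Some genes that fall under this rule are not reported here. The members and lists were chosen with earlier results of these data known. Alternatives were DESeq2 1.42.0 (the authors' tool), other scalings, other filters (any culture with 1 count, or every culture with 10), halved counts, each culture left out and, for family shares, other length models.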

Additional observations from a re-analysis of the deposited data

How the results depend on the processing

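The counts of 7 members called higher and 1 called lower were the same under all 15 alternatives (DESeq2, 3 other scalings, 2 other filters, halved counts and each of the 8 cultures left out), and all 150 member log2 fold changes kept their direction and their side of the threshold. *Egr2* ranged from 1.42 to 1.55, *Jund* from −0.23 to −0.18, *Jun* from 0.02 to 0.07 (adjusted p from 0.0764 to 0.630) and *Atf3* from −0.23 to −0.10 (adjusted p from 0.0588 to 0.480). Members without overlap between groups numbered 8 to 9 with a culture left out. Another scaling put the median of all genes between −0.02 and 0.00. Heat shock genes called lower, 2 in the report, were 1 with DESeq2 and 1 with DESeq2 size factors in edgeR, and 0 to 2 with a culture left out: 0 without vehicle replicate 1 and 1 without vehicle replicate 2 or TGF-β1 replicate 7 or 8. The cause was not tested. With shares of CPM, *Fosl1* held 16.7% (vehicle) and 17.1% (TGF-β1) of the FOS family and *Junb* 37.9% and 46.1% of the JUN family. With the whole count divided by unshared exon bases only, chosen after seeing the data, these were 66.3% and 66.5%, and 31.6% and 40.6%. The length model alone differs there. No paired analysis was possible because the labels number the cultures 1 to 4 and 5 to 8, so the groups share no replicate number. Depth limits *Fosb* and *Atf3* most, with 171 to 273 and 249 to 367 counts a culture.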
